A study of Mus musculus with 18 samples.

Results

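The core genes of the circadian clock were followed across the livers of 18 mice. The members are Arntl (which encodes BMAL1), Clock, Npas2, Per1, Per2, Per3, Cry1, Cry2, Nr1d1 (which encodes REV-ERBα) and Dbp, taken by gene symbol from a table of counts and a table of RPKM that each hold 55385 genes. All 10 members were found and all 10 passed the filter on low counts, which left 15208 genes for testing. The mice were wild-type C57BL/6J (WT), Dp16 or Dp16-2xIFNRs, with 6 mice per genotype, 3 males and 3 females in each, aged 17.1 to 18.0 weeks, and the labels list no treatment. Dp16 mice carry an extra copy of a segment of mouse chromosome 16 that is syntenic to human chromosome 21 and holds 4 interferon receptor genes, and they are used as a model of trisomy 21. Dp16-2xIFNRs mice carry the same extra segment with the receptor genes back at the WT copy number. The whole liver was sampled, so that fewer cells of a type and less RNA per cell cannot be told apart. The sources used here give neither the hour at which each liver was taken nor the feeding state or the light schedule. The labels number the livers as separate samples and do not say how the mice were housed or bred, so p-values measure the spread between these samples.

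The clock is a feedback loop that most cells run with a period close to a day. BMAL1 pairs with CLOCK or NPAS2 and switches on genes through E-boxes, among them the Per, Cry, Nr1d1 and Dbp genes; PER and CRY proteins then block that pair, REV-ERBα represses Arntl, Clock, Npas2 and Cry1 through ROR elements, and DBP acts on D-boxes. In mouse liver the transcripts of Dbp and Nr1d1 are at their highest when those of Arntl and Npas2 are low, and feeding, glucocorticoids and body temperature are known to set the phase.

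Promoter windows of 4 members are shown because they hold the motifs on which the loop runs, 1 for each kind of element that was searched. RefSeq windows on GRCm38.p6, each 300 bases from 250 before to 50 after a start site, were matched by symbol for 9 of the 10 members (13 windows; Per2 was not matched). Motifs are in capitals, each window is written 5′ to 3′ on the gene's strand, and the searches covered both strands.
Arntl: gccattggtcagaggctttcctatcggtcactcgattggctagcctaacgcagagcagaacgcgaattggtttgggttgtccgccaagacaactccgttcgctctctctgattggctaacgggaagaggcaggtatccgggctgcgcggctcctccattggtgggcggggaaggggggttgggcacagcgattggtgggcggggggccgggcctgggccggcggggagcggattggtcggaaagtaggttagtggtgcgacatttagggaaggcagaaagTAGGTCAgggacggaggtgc
Cry1: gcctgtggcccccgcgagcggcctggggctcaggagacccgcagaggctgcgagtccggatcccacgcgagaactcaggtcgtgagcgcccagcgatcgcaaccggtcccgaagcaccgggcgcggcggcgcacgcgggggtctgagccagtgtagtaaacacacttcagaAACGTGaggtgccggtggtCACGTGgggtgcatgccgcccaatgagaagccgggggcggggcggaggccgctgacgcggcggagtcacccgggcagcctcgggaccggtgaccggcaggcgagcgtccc
Per1: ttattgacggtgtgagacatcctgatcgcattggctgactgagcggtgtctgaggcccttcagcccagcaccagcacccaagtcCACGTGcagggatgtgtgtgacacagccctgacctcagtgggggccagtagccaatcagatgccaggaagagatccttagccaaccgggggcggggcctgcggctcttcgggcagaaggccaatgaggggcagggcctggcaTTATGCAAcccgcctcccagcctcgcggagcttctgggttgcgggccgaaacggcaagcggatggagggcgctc
Per3: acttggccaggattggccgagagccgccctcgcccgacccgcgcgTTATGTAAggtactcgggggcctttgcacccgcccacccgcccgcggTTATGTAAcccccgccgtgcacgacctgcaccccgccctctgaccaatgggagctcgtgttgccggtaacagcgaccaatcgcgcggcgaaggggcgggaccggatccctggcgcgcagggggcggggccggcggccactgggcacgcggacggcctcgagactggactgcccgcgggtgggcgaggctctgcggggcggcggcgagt
The Arntl window (chr7:113207261-113207560, + strand) held the core of a ROR element, TAGGTCA, which began at base 31 after the start site. The Cry1 window (chr10:85185005-85185304, − strand) held the E-box CACGTG 60 bases before the start site and the variant CACGTT, read from the other strand as AACGTG, 79 bases before it. The Per1 window (chr11:69098699-69098998, + strand) held CACGTG 166 bases and the D-box TTATGCAA 24 bases before the start site. The Per3 window (chr4:151044616-151044915, − strand) held the D-box TTATGTAA both 205 and 158 bases before the start site. The variant CACGTT was also found 28 bases before a start site of Nr1d1 and 166 bases before that of Cry2, and 7 of the 13 windows held none of the 4 motifs. No matches overlapped. Of all 32851 mouse windows of this length, 7.15% held CACGTG, 4.685% CACGTT, 2.606% TAGGTCA and 1.662% one of the D-boxes TTATGTAA and TTATGCAA. A match describes letters in a window and is not a bound site.

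Total counts per library ran from 38236222 to 59923315. The scaling factors that edgeR computes to compare libraries (TMM) ran from 0.8026 in Dp16 4 to 1.338 in Dp16 5, which stand apart in this respect. Ifnar1, a receptor gene of the segment, followed the labels, with a median of 21.75 CPM (counts scaled by the library's total and its TMM factor) in WT, 31.66 in Dp16 and 23.55 in Dp16-2xIFNRs livers. Each library carried the liver's own transcripts, with 5 hepatocyte markers (Alb, Apoa1, Ttr, Serpina1a and Fgb) summing to between 73840 and 129500 CPM. The 5 fat markers (Adipoq, Plin1, Cidec, Lep and Car3) summed to between 1209 and 4338 CPM, with Lep at 0 in all 18 libraries. The 5 pancreas markers summed to between 4.747 and 38.04 CPM, with Pnlip at 0. Only 2 of the fat markers and 1 of the pancreas markers passed the filter on low counts, so that these sums rest on few genes.

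Clock genes differed widely among livers of the same genotype. Dbp, a PAR bZIP transcription factor and an output of the loop, measured from 0.331 RPKM (a count scaled by the library's total and the length of the gene model) in Dp16-2xIFNRs 1 to 116.4 in WT 3, a 351.7-fold range. No library lay between 4.14 and 30.95 RPKM of Dbp, so that 9 libraries were low and 9 were high. The 9 low libraries were WT 1, Dp16 1, 3, 4 and 5, and Dp16-2xIFNRs 1, 3, 4 and 5, 6 of them from males. The 9 high libraries were the other 5 WT, Dp16 2 and 6, and Dp16-2xIFNRs 2 and 6, 3 of them from males. Both kinds occurred in every genotype and in both sexes.

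The spread of each member among mice of the same genotype and sex was set against that of all 15208 genes tested, as the SD of log2 CPM about the mean of the genotype and sex. Dbp had an SD of 2.95 and ranked 2 among all genes, Npas2 had 2.57 and ranked 3, Arntl had 2.09 and ranked 14, and Per3 had 1.91 and ranked 45. The median gene had an SD of 0.51. Per1 followed with 1.22, Nr1d1 with 1.21, Cry1 with 0.99, Per2 with 0.73 and Clock with 0.70. Cry2 was the steadiest member, with an SD of 0.44, below the median of all genes tested (percentile 41.62). That comparison includes weakly expressed genes. Against only the 10410 genes whose mean log2 CPM was 1 or more, Cry2 lay above the median, at percentile 59.84. By the same change Clock went from percentile 68.01 to 90.39 and Per2 from 70.36 to 92.35.

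**Figure D1:**
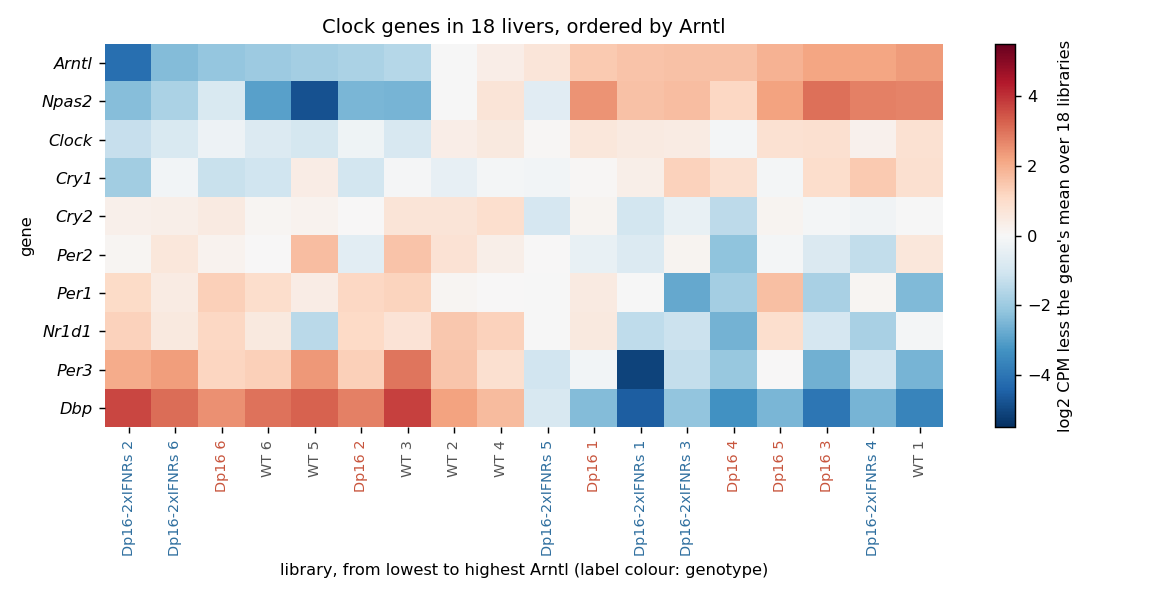
Log2 CPM of the 10 clock genes (rows) in the 18 livers (columns, ordered from lowest to highest Arntl, label colour by genotype), each less the gene's own mean, with red above and blue below it. Arntl, Npas2 and Clock run from blue to red while Dbp and Per3 run from red to blue, and libraries of all 3 genotypes stand at both ends.

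Arntl (ENSMUSG00000055116.8, chromosome 7, 113207465 to 113314126 on GRCm38 by the GENCODE annotation, protein-coding like all members), the partner that every activating complex of the loop needs, ranged from 0.311 through a median of 0.957 to 7.55 RPKM in WT. In Dp16 livers it ranged from 0.332 through 3.87 to 7.11, and in Dp16-2xIFNRs livers from 0.0655 through 3.06 to 6.53 RPKM. The highest library was 24.29-fold above the lowest in WT, 21.41-fold in Dp16 and 99.81-fold in Dp16-2xIFNRs, and the 3 genotypes overlapped. WT 1, which had the lowest Dbp of its group, had the highest Arntl of all 18. The 9 libraries with high Dbp had at most 2.056 RPKM of Arntl and the 9 with low Dbp at least 2.056, the value that WT 4 and Dp16-2xIFNRs 5 shared.

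Npas2 (ENSMUSG00000026077.15, chromosome 1, 39193731 to 39363236), a paralog of Clock that also pairs with BMAL1, went from 0 reads in WT 5 through a median of 0.151 to 1.88 RPKM in WT. It went from 0.0361 through 1.08 to 2.34 in Dp16 and from 0.0425 through 0.474 to 1.87 RPKM in Dp16-2xIFNRs livers. Clock (ENSMUSG00000029238.11, chromosome 5, 76209868 to 76304792), the histone acetyltransferase partner of BMAL1, moved over a narrower range: 0.840 to 3.31 RPKM around a median of 1.68 in WT, 1.32 to 4.22 around 2.30 in Dp16, and 0.707 to 2.43 around 1.90 in Dp16-2xIFNRs livers. Groups overlapped for both genes.

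Among the repressors, Per2 (ENSMUSG00000055866.9, chromosome 1, 91415982 to 91459324), a scaffold of the repressive complex, measured 0.659 to 2.16 RPKM around a median of 1.19 in WT, 0.117 to 0.861 around 0.516 in Dp16, and 0.269 to 1.04 around 0.692 in Dp16-2xIFNRs livers. WT 6, at 0.659 RPKM, was the only WT library below the highest Dp16 library. Per1 (ENSMUSG00000020893.17, chromosome 11, 69095217 to 69109960), a Per gene that also responds to glucocorticoids and other acute signals, measured 0.328 to 4.22 RPKM around 2.06 in WT, 0.381 to 7.38 around 3.24 in Dp16 and 0.233 to 3.56 around 1.77 in Dp16-2xIFNRs livers. Its lowest libraries were 4 males, WT 1, Dp16 3 and 4, and Dp16-2xIFNRs 3, from 0.233 to 0.536 RPKM, while the other 14 libraries started at 1.539. Per3 (ENSMUSG00000028957.12, chromosome 4, 151003652 to 151044665), the Per gene least needed for the rhythm, measured 0.0354 to 1.90 RPKM around 0.626 in WT, 0.0335 to 0.569 around 0.274 in Dp16, and from 0 reads in Dp16-2xIFNRs 1 to 1.15 around 0.103 in Dp16-2xIFNRs livers. The high and low libraries of Per3 were those of Dbp. The lowest Per3 beside high Dbp was 0.483 RPKM in WT 4, and the highest beside low Dbp was 0.314 in Dp16 5. The promoters of Per3 and Per1 printed above hold D-boxes, the element that DBP binds. The 4 libraries lowest in Per1 had low Dbp, but so had Dp16 5, which had the highest Per1 (7.38 RPKM). Whether DBP acted on either gene was not tested.

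Cry1 (ENSMUSG00000020038.10, chromosome 10, 85131700 to 85185064), the stronger of the cryptochrome repressors and a target of REV-ERBα, measured 0.821 to 3.70 RPKM around 1.96 in WT, 0.860 to 3.94 around 2.33 in Dp16, and 0.483 to 5.26 around 1.99 in Dp16-2xIFNRs livers. Cry2 (ENSMUSG00000068742.11, chromosome 2, 92403646 to 92434043), its paralog, measured 3.14 to 6.75 RPKM around 4.44 in WT, 0.964 to 4.84 around 3.62 in Dp16, and 1.54 to 3.90 around 2.59 in Dp16-2xIFNRs livers. The 3 ranges overlapped for both cryptochromes.

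Nr1d1 (ENSMUSG00000020889.11, chromosome 11, 98767932 to 98775333), the nuclear receptor that represses Arntl, measured 5.25 to 45.35 RPKM around 24.1 in WT, 2.12 to 40.05 around 28.92 in Dp16 and 4.65 to 36.29 around 10.31 in Dp16-2xIFNRs livers. Dbp (ENSMUSG00000059824.12, chromosome 7, 45705088 to 45710203) measured 0.670 to 116.4 RPKM around 50.83 in WT, 0.535 to 54.34 around 1.87 in Dp16, and 0.331 to 101.8 around 2.94 in Dp16-2xIFNRs livers. The medians of Dbp differ as the count of low and high libraries does, since only WT 1 was low in its genotype and 4 of 6 were low in each of the other two. Nr1d1 and Dbp parted in some livers: WT 5 had 5.25 RPKM of Nr1d1, the lowest in WT, beside 74.58 of Dbp, and Dp16 5 had 40.05 of Nr1d1 beside 1.95 of Dbp.

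**Figure D2:**
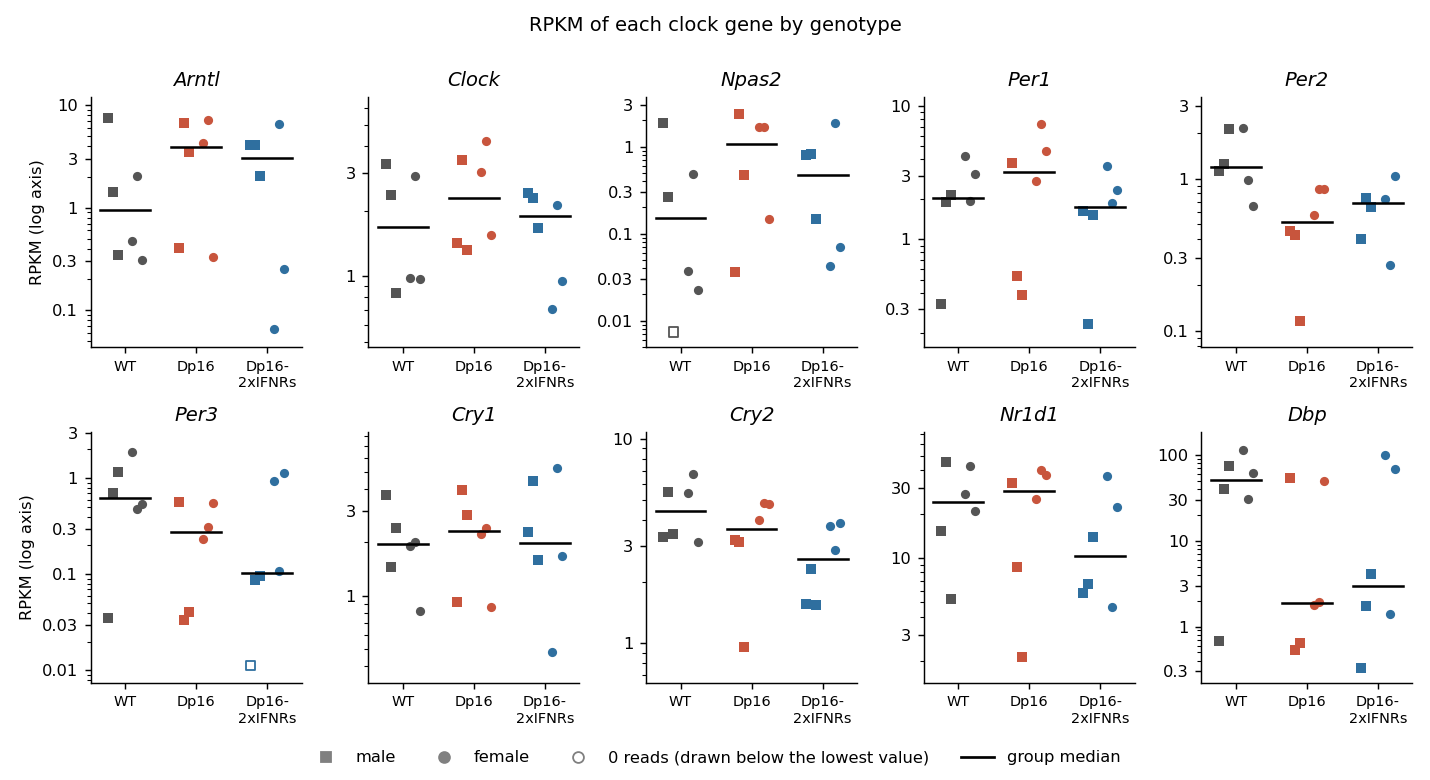
RPKM on a log axis of each clock gene in WT, Dp16 and Dp16-2xIFNRs livers (6 per genotype; squares males, circles females, black line the group median, open symbols libraries with 0 reads). All 3 genotypes overlap in every panel, and Dbp leaves a gap between 4.14 and 30.95 RPKM.

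The order of the members' levels, read on the per-length RPKM scale, was not the same in the 3 genotypes. In WT livers Dbp had the highest median (50.83 RPKM), followed by Nr1d1 (24.1), Cry2 (4.44), Per1 (2.06), Cry1 (1.96), Clock (1.68), Per2 (1.19), Arntl (0.957), Per3 (0.626) and Npas2 (0.151). In Dp16 livers Nr1d1 (28.92) led and was followed by Arntl (3.87), with Dbp at place 7 (1.87 RPKM) and Per3 last (0.274). In Dp16-2xIFNRs livers Nr1d1 (10.31) led, again before Arntl (3.06) and Dbp (2.94), with Per3 last (0.103). In each genotype the ranges of every pair of neighbours in the order overlapped.

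Differences between genotypes were tested with the edgeR quasi-likelihood test over all 15208 genes, with sex in the model and p-values adjusted by Benjamini-Hochberg. The comparisons share libraries, so that their values are not independent of each other. Against WT, 0 of 10 members passed in Dp16 livers by edgeR and by limma-voom, and 1 of 10 (Per2) passed by DESeq2. Of all genes tested, 0.0395% passed by edgeR, 0.0658% by limma-voom and 0.473% by DESeq2. At an unadjusted p under 0.05 by edgeR, 2 members, Per2 and Cry2, were counted, beside 4.87% of all genes. Per2 was 2.85-fold lower in the fit (log2 fold change −1.51, SE 0.39, n = 6 mice per genotype), with an adjusted p of 0.289 by edgeR and 0.02298 by DESeq2, and 6 of 6 Dp16 libraries lay below the WT mean. Cry2 had a log2 fold change of −0.53 (SE 0.23, edgeR adjusted p = 0.948), with 5 of 6 libraries below the WT mean. Dbp had a log2 fold change of −1.35 and Arntl of 1.02, with SEs of 1.29 and 0.91 that are nearly as large as the differences. With a library left out, the value of Dbp ran from −4.20 without Dp16 2 to −0.64 without WT 5, and that of Arntl from 0.70 without Dp16 5 to 1.91 without WT 1. Without Dp16 4 and 5, Per2 had −1.33 (adjusted p = 0.419) and Cry2 −0.33. The median log2 fold change was −0.10 over the 10 members and 0.01 over all genes tested.

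Dp16-2xIFNRs livers were next set against WT. By edgeR, DESeq2 and limma-voom alike 0 of 10 members passed, beside 0.0986% of all genes by edgeR, 0.835% by DESeq2 and 0.138% by limma-voom. The members with an unadjusted p under 0.05 by edgeR were again Per2 and Cry2, 2 of 10, beside 8.66% of all genes. Cry2, which restrains BMAL1 and CLOCK, had a log2 fold change of −0.78 (SE 0.24, edgeR adjusted p = 0.320), with 6 of 6 libraries below the WT mean. Per2 had −1.06 (SE 0.38, edgeR adjusted p = 0.461), also with 6 of 6 below. The median log2 fold change was −0.52 over the members and −0.02 over all genes.

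Between Dp16-2xIFNRs and Dp16 livers, which differ by the receptor dosage, 0 of 10 members passed by edgeR, DESeq2 and limma-voom, and 0 had an unadjusted p under 0.05. Of all genes, 0% passed by edgeR and by limma-voom and 0.046% by DESeq2, and 9.32% had an unadjusted p under 0.05. The fitted differences of the members ran from a log2 fold change of −0.59 for Npas2 (SE 1.07) to 0.46 for Per2 (SE 0.38). With a library left out, the value of Npas2 ran from −2.09 without Dp16-2xIFNRs 4 to −0.24 without Dp16 3, and that of Per2 from 0.25 without Dp16 4 to 0.65 without Dp16-2xIFNRs 4. Dbp, at −0.14, had an SE of 1.5, so that differences of several fold in either direction were not detectable with these 6 mice per genotype.

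**Figure D3:**
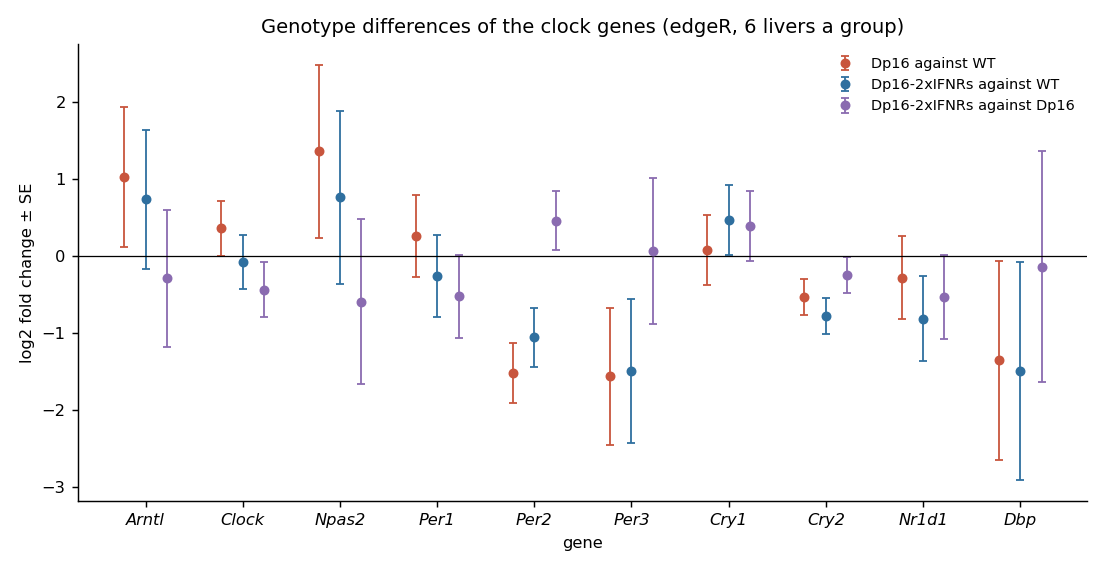
Log2 fold change of each clock gene (edgeR, points) with its standard error (bars) for Dp16 against WT, Dp16-2xIFNRs against WT and Dp16-2xIFNRs against Dp16, 6 livers per genotype. Per2 at −1.51 and −1.06 and Cry2 at −0.53 and −0.78 lie below 0 by more than 2 standard errors against WT, and the bars of Dbp, Npas2 and Arntl span the widest range. The standard errors are derived from the edgeR test, and none of these values of Per2 and Cry2 passed by edgeR after adjustment.

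The sexes were balanced within genotypes, so the same fit gave the difference of females from males. By edgeR 0 of 10 members passed, beside 6.56% of all genes. At an unadjusted p under 0.05, Per1 and Cry2 were counted, 2 of 10 beside 18.8% of all genes. Per1 ranged from 1.376 through a median of 9.6 to 21.88 CPM in 9 males and from 9.93 through 19.23 to 31.05 CPM in 9 females. Its log2 fold change was 1.17 (SE 0.44, edgeR adjusted p = 0.139), and 9 of 9 females lay above the male mean. Cry2 ranged from 5.219 through 12.98 to 23.34 CPM in males and from 12.36 through 16.9 to 26.43 CPM in females, with a log2 fold change of 0.61 (SE 0.19, edgeR adjusted p = 0.0678) and 9 of 9 females above the male mean. DESeq2 called Cry2 alone (adjusted p = 0.02915; 10.1% of all genes), and limma-voom called Per1 alone (adjusted p = 0.02476; 7.15% of all genes), 1 of 10 in each. Dbp was not called, with a log2 fold change of 1.54 and an SE of 1.23.

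Whether the genotype differences depend on sex was tested with interaction terms. For Dp16 against WT, 0 of 10 members passed by edgeR, DESeq2 and limma-voom, and 0 had an unadjusted p under 0.05 by edgeR, beside 0%, 0.342%, 0.00658% and 7.88% of all genes in the same order. For Dp16-2xIFNRs against WT the counts were again 0 of 10 by each tool and 0 unadjusted, beside 0%, 0.0658%, 0.00658% and 2.24% of all genes. A number from 1 to 18 that opens each sample description, whose meaning the labels do not give, was tested as a slope. By edgeR, DESeq2 and limma-voom 0 of 10 members passed, beside 0%, 0.671% and 0% of all genes, and Nr1d1 alone had an unadjusted p under 0.05 by edgeR (log2 0.09 per unit, SE 0.04, adjusted p = 0.324), beside 15.4% of all genes.

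Each other gene was also fitted on the log2 CPM of Arntl, with genotype and sex in the model, to show which genes moved together among mice of the same genotype and sex, a test that was added after the values had been seen. Of the 9 other members 5 passed by edgeR, beside 0.907% of all genes (138 of 15208, and between 45 without Dp16 2 and 1379 without Dp16 4), and 7 had an unadjusted p under 0.05, beside 17.3%. DESeq2 called the same 5, beside 3.49% of all genes, and limma-voom called 4 of them, without Per3, beside 0.967%. Npas2, Clock and Cry1 rose with Arntl, and Dbp and Per3 fell.

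The slopes state how many log2 units a gene changed for 1 log2 unit of Arntl. Npas2 rose by 1.14 (SE 0.13, edgeR adjusted p = 7.539e-05). Clock rose by 0.31 (SE 0.04, adjusted p = 0.000828) and Cry1 by 0.35 (SE 0.07, adjusted p = 0.0218). Dbp fell by 1.31 (SE 0.12, adjusted p = 1.287e-05) and Per3 fell by 0.70 (SE 0.13, adjusted p = 0.00941). Per1 had a slope of −0.27 (SE 0.11, adjusted p = 0.223), Nr1d1 −0.25 (SE 0.11, adjusted p = 0.259), Per2 −0.17 (SE 0.08, adjusted p = 0.302) and Cry2 −0.07 (SE 0.05, adjusted p = 0.445), and none of these 4 passed.

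**Figure D4:**
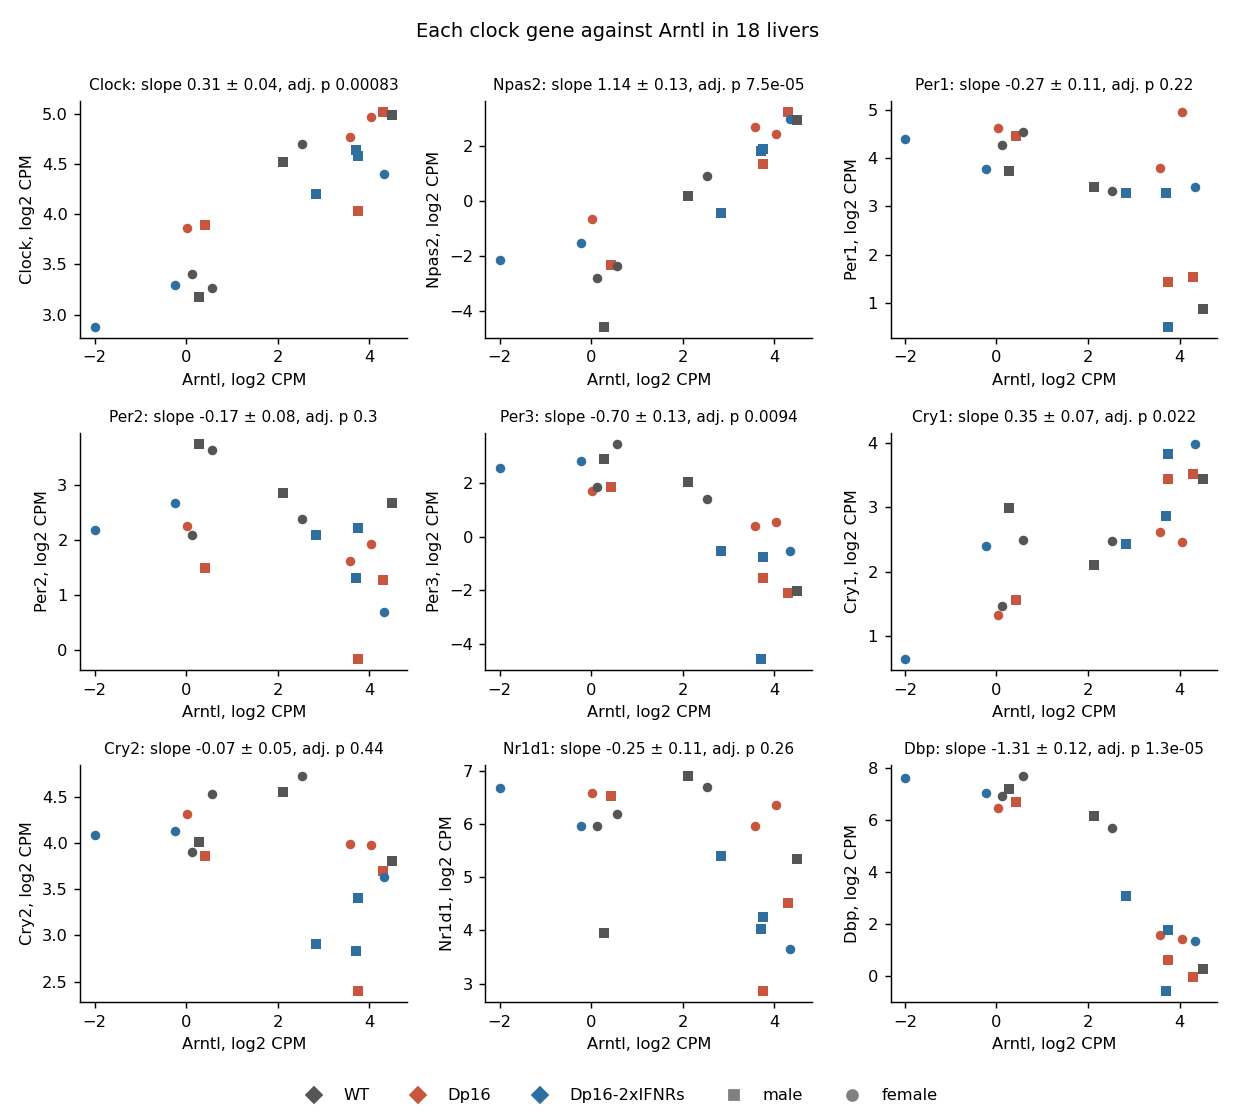
Log2 CPM of each other clock gene against that of Arntl in the 18 livers (colour by genotype, squares males, circles females), with the edgeR slope, its standard error and adjusted p above each panel. Dbp and Per3 fall and Npas2, Clock and Cry1 rise along Arntl, and Cry2 and Per2 have the slopes nearest to 0.

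Since the livers fall into 9 with low and 9 with high Dbp, the relations were also computed inside each set, over 45 pairs of members (exact permutation tests, two-sided, n = 9, adjusted over the 45 pairs). These values are on log2 CPM as it stands, so that genotype and sex, which are held in the slopes, are not held here, and the high set holds 5 WT, 2 Dp16 and 2 Dp16-2xIFNRs livers. The sets were cut on Dbp, itself a member of the pairs, which narrows the range of Dbp and of Arntl within each. Whether a pair passed inside a set therefore cannot decide on its relation over all 18 libraries. Among the 9 high libraries 2 pairs passed, and 11 had an unadjusted exact permutation p under 0.05. Clock and Dbp had Pearson r = −0.94 (exact adjusted p = 0.004836; Spearman rho −0.93, exact adjusted p = 0.03373; r = −0.86 without the 2 libraries farthest from the median of Clock). Arntl and Clock had r = 0.88 (exact adjusted p = 0.03813; rho 0.67, exact adjusted p = 0.2944; r = 0.76 without the 2 farthest). Among the 9 low libraries 0 pairs passed, and 9 had an unadjusted exact permutation p under 0.05.

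For Arntl and Dbp, r was −0.77 in the high set (exact adjusted p = 0.1128; rho −0.48, exact adjusted p = 0.459) and −0.62 in the low set (exact adjusted p = 0.3232; rho −0.50, exact adjusted p = 0.4703). Without the 2 libraries farthest from the median of Arntl in each set, r was −0.46 and −0.07. Leaving out the extremes of Arntl narrows its range further, so these values cannot show which libraries carry the relation. Over all 18 libraries, on log2 CPM less the mean of genotype and sex, r was −0.93 with and without the 2 farthest. For Arntl and Npas2, r was 0.57 in the high set (exact adjusted p = 0.2427; rho 0.27, exact adjusted p = 0.6529; 0.48 without the 2 farthest) and 0.89 in the low set (exact adjusted p = 0.1419; rho 0.72, exact adjusted p = 0.3774; 0.68 without the 2 farthest). For Arntl and Per3, r was −0.39 in the high set (exact adjusted p = 0.4683; rho −0.22, exact adjusted p = 0.7066; −0.10 without the 2 farthest) and −0.15 in the low set (exact adjusted p = 0.958; rho −0.15, exact adjusted p = 0.8851; 0.09 without the 2 farthest). None of these 6 values passed, which cannot decide on the relations over all libraries, since each set holds few libraries and a narrowed range.

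The slopes were also fitted on fewer libraries. Without Dp16-2xIFNRs 2 and 6, the 2 libraries farthest from the median of Arntl over all 18, 3 of 9 members passed by edgeR, beside 239 of all genes tested. These were Npas2 (slope 1.31), Dbp (−1.47) and Clock (0.32), while Per3 (−0.74, adjusted p = 0.06068) and Cry1 (0.35, adjusted p = 0.06584) did not pass. Leaving out Dp16 2 also left 3 of 9, beside 45 of all genes tested. In the fit on males alone 2 of 9 passed, beside 13 of all genes tested. In the fit on females alone 2 of 9 passed, beside 12 of all genes tested.

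The genotype differences were recomputed with Arntl as a term, an alternative also added after the values had been seen, and 0 of 9 members passed by edgeR in any comparison. Of all genes tested, 10 passed in Dp16 and 23 in Dp16-2xIFNRs livers against WT, and 0 between Dp16-2xIFNRs and Dp16 livers. Per2 had a log2 fold change of −1.29 in Dp16 (SE 0.38, adjusted p = 0.426) and −0.998 in Dp16-2xIFNRs livers (SE 0.35, adjusted p = 0.350) against WT. The SE of Dbp was 0.497 and 0.508 in this fit, against 1.29 and 1.41 without the term, and its log2 fold changes were −1.74 (adjusted p = 0.402) and −1.84 (adjusted p = 0.205). Cry2 had −0.47 (adjusted p = 0.9997) and −0.77 (adjusted p = 0.231).

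Some mice share a longer number in the sample descriptions, whose meaning the labels do not give. It ties 11 libraries into 5 sets, each of 1 sex and of mixed genotype. WT 1, Dp16-2xIFNRs 1 and Dp16 3, males of 18.0 weeks, had 0.670, 0.331 and 0.535 RPKM of Dbp and 7.55, 4.06 and 6.67 RPKM of Arntl. Dp16-2xIFNRs 4 and Dp16 1, females of 17.7 weeks, had 1.395 and 1.784 RPKM of Dbp. WT 3 and Dp16-2xIFNRs 2, females of 18.0 weeks, had 116.4 and 101.8 RPKM of Dbp and 0.479 and 0.0655 RPKM of Arntl. Dp16-2xIFNRs 6 and Dp16 6, females of 17.9 weeks, had 68.98 and 50 RPKM of Dbp. In these 4 sets all libraries fell on the same side of the gap in Dbp, whatever their genotype. The fifth set did not: WT 5 had 74.58 and Dp16-2xIFNRs 3 had 1.741 RPKM of Dbp, and these males differ in age, at 17.6 and 17.7 weeks.

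The descriptions also hold a code, a T followed by a number, whose meaning the labels do not give and which entered no test. Of the 6 codes that libraries share, 4 had libraries on both sides of the gap in Dbp.

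Over the 7 pairs of libraries with a shared number, the median difference in Dbp was 0.54 log2 units, beside 4.10 over the 65 other pairs of the same sex. For Arntl it was 0.76 beside 2.12 and for Npas2 0.89 beside 2.77. For Per2 it was 1.36 beside 0.91. All pairs with a shared number are of mixed genotype, while the other pairs include mice of the same genotype. With genotype and sex fitted, the correlation within a shared number was 0.84 for Cry2, 0.81 for Per2, 0.65 for Dbp, 0.51 for Arntl and −0.23 for Per1. It was 0.65 for Per3, 0.54 for Clock and for Npas2, 0.43 for Nr1d1 and 0.19 for Cry1. The median over all genes tested was 0.42, so likeness within a shared number was not particular to the clock genes. These pairs reuse libraries, and the differences are given as a description without a test.

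Other genes of the clock and its outputs were read from 4 lists against the same slope on Arntl, with genes named by their p. The lists were chosen with earlier results of these data known, so their counts are a description and no independent test. Of 13 accessory regulators tested (Rorb was not tested), 4 passed by edgeR, beside 0.907% of all genes, with a median slope of −0.07 beside 0.01 over all genes. Ciart, a repressor of the BMAL1 complex, fell by 1.23 per log2 unit of Arntl (SE 0.19, adjusted p = 0.002856). Tef, a relative of Dbp that binds D-boxes, fell by 0.49 (SE 0.05, adjusted p = 1.287e-05), and Nr1d2, which encodes REV-ERBβ, fell by 0.40 (SE 0.05, adjusted p = 0.0006392). Nfil3, which represses through the D-boxes that DBP activates, rose by 0.40 (SE 0.05, adjusted p = 0.0001809). Tef ranged from 11.66 to 98.68 CPM over the 18 libraries and Nfil3 from 4.063 to 62.81.

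Of 15 modifiers of clock proteins 2 passed by edgeR, with a median slope of 0.05, and this count was 1 without WT 1, 4 or 5 or Dp16 2, 5 or 6, and 4 without Dp16 4. Usp2, a deubiquitinase of clock proteins, fell by 0.93 (SE 0.09, adjusted p = 1.498e-05) and ranged from 0.415 to 45.96 CPM. Sirt1, a deacetylase of BMAL1 and PER2, rose by 0.18 (SE 0.04, adjusted p = 0.02508). Dyrk1a, a kinase of CRY2 that lies on the extra segment and is named for that, had a slope of 0.12 (adjusted p = 0.197).

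Of 20 outputs of the liver clock 8 passed by edgeR, 4 in each direction, with a median slope of −0.10, and this count was 4 without Dp16 2 and 5 without WT 1, 4 or 5 or Dp16 6. Those that fell with the smallest p were Coq10b, of coenzyme Q handling (−0.57, SE 0.06, adjusted p = 6.801e-05), Upp2, a uridine phosphorylase (−0.43, SE 0.07, adjusted p = 0.002105), and Gys2, the liver glycogen synthase (−0.23, SE 0.04, adjusted p = 0.003602). Cdkn1a, a cell cycle inhibitor, rose (0.40, SE 0.06, adjusted p = 0.00387). The other 4 that passed, named after their values were seen, were Wee1, a kinase that delays mitosis, which fell (−0.47), and Ppard (0.48), Avpr1a (0.33) and Lonrf3 (0.72), which rose. Of 14 genes that respond to temperature or glucocorticoids, 0 passed by edgeR, with a median slope of −0.07. An unadjusted p under 0.05 was held by 5 of the 14, beside 17.3% of all genes. The smallest p values there belonged to Dnajb1, a cochaperone (−0.16, adjusted p = 0.171), and Hsp90aa1, a chaperone (0.14, adjusted p = 0.194).

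**Figure D5:**
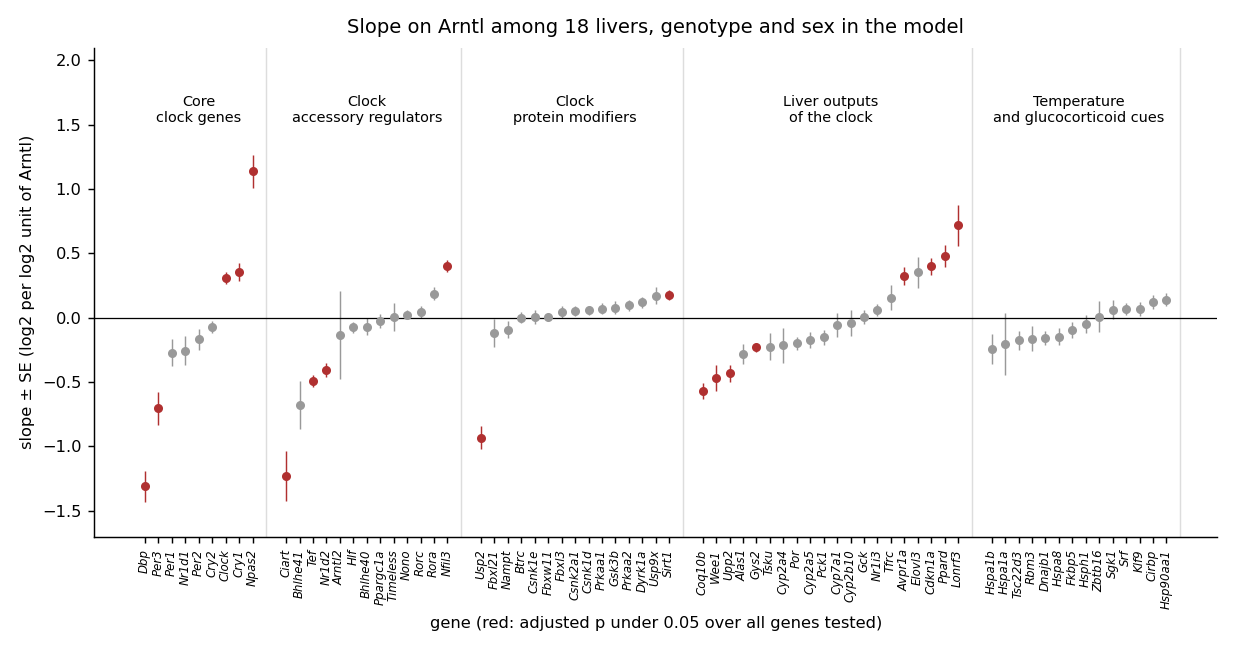
Slope of each gene on Arntl (log2 units per log2 unit of Arntl, points, with standard error bars) for the core members and the genes of 4 lists, in red where the edgeR adjusted p over all 15208 genes is under 0.05. Ciart, Tef, Nr1d2 and Usp2 lie on the side of Dbp and Per3, and Nfil3, Ppard and Lonrf3 on the side of Npas2, Clock and Cry1.

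The genes outside these lists whose pattern was most like that of Arntl, by Pearson r of log2 CPM less the mean of genotype and sex over the 18 libraries, were Ypel2 (r = 0.94), Smarcd1 (0.93), Lgalsl (0.93), Rnf125 (0.92) and Pnrc1 (0.91). Inside the high and low sets, on log2 CPM with no mean of genotype and sex taken off, Rnf125 had 0.85 and 0.85 and Ypel2 0.89 and 0.78, while Smarcd1 had 0.83 and 0.37. The genes most like Nr1d1 were Klf10 (0.89), Klhl21 (0.87), Baiap2l1 (0.85), Whamm (0.84) and Nme7 (0.83), at ranks 2, 4, 5, 6 and 7 of all genes tested. Both choices leave out members, listed genes, predicted or clone names, and genes with a mean log2 CPM under 1. Klf10, a zinc finger repressor, had 0.79 in the high and 0.76 in the low set. These values describe the libraries and carry no test.

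The same lists held 0 called genes by edgeR in each genotype comparison, and the 2 genes with the smallest p are given per list as values. For Dp16 against WT, 4.87% of all genes had an unadjusted p under 0.05 by edgeR, the share beside which each list is set. Of 13 accessory regulators 4 had one, with a median log2 fold change of −0.36 over the list beside 0.01 over all genes. The smallest p values were those of Ppargc1a, a coactivator of the RORs (0.79, adjusted p = 0.498), and Hlf, a PAR bZIP factor like Dbp (−0.53, adjusted p = 0.830). Among 15 modifiers, 1 had an unadjusted p under 0.05: Dyrk1a, with 0.72 (SE 0.23, adjusted p = 0.552) and medians of 15.83, 29.25 and 23.48 CPM in WT, Dp16 and Dp16-2xIFNRs livers, followed by Csnk1d, a kinase of the PER proteins (0.22). Among 20 outputs, 5 had an unadjusted p under 0.05, led by Cdkn1a (2.03, SE 0.51, adjusted p = 0.279) and Cyp2a5, a cytochrome P450 of drug metabolism (−1.17, SE 0.32, adjusted p = 0.368). Among 14 cue genes, 2 did, Zbtb16 (1.73, adjusted p = 0.650) and Sgk1 (0.87, adjusted p = 0.743), both induced by glucocorticoids.

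For Dp16-2xIFNRs against WT, 8.66% of all genes had an unadjusted p under 0.05 by edgeR, the share beside which each list is set. Of 13 accessory regulators 3 had one, with a median of −0.51 beside −0.02 over all genes. The smallest p values were those of Hlf (−0.71, adjusted p = 0.255) and Nfil3 (1.23, adjusted p = 0.477). Dyrk1a was the only modifier of 15 with an unadjusted p under 0.05 (0.47, SE 0.22, adjusted p = 0.574), followed by Gsk3b, a kinase of several clock proteins (−0.39). Of 20 outputs 4 had one, led by Nr1i3, the xenobiotic receptor CAR (−1.03, SE 0.21, adjusted p = 0.0701), and Cyp2a5 (−0.95, adjusted p = 0.418). Of 14 cue genes 1 had one, Sgk1 (1.17, SE 0.31, adjusted p = 0.224), followed by Fkbp5 (−0.54). For Dp16-2xIFNRs against Dp16, 9.32% of all genes had an unadjusted p under 0.05 by edgeR. Each list had 1 such gene, a count near that share: Ppargc1a (−0.79), Csnk1d (−0.43), Pck1, the gluconeogenic enzyme (−0.63), and Zbtb16 (−2.14), each with an adjusted p of 0.532. The genes next by p were Rora (−0.48), Sirt1 (−0.39), Nr1i3 (−0.41) and Klf9 (−0.50).

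Marker lists of 10 cell types, with 5 genes each, were read beside these results. Their summed level had correlations with Arntl between −0.30 and 0.39 over the 18 libraries, and 0 of the markers tested passed on the Arntl slope by edgeR. The sum of 5 neutrophil and monocyte markers (S100a8, S100a9, Ly6c2, Ccr2 and Retnlg) ranged from 2.669 to 8.03 CPM in WT, from 6.323 to 19.45 in Dp16 and from 6.733 to 19.54 in Dp16-2xIFNRs livers, with medians of 5.254, 8.344 and 13.93, and 0 of the 5 passed in either comparison with WT. The median sum of 5 T and B cell markers was 2.827, 4.774 and 5.766 CPM and that of 5 erythroid markers 105.4, 145.7 and 208.2 CPM in WT, Dp16 and Dp16-2xIFNRs livers. The part of these cells in the values of Per2 and Cry2 was not tested. Total counts (r = −0.21), TMM factor (0.25) and age (−0.16) had these correlations with Arntl, given as a description.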

How the data were processed

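PolyA RNA from 18 livers had been sequenced as strand-specific paired-end libraries, per the labels' protocols. The deposited counts are whole reads per gene made by the authors. HTSeq 0.6.1, HISAT2 2.1.0, SAMtools 1.5, FastQC 0.11.5, bcl2fastq and the build GRCm38 are listed, without settings, per the submitters' processing notes. The deposited RPKM values of the authors stood in 1 ratio to the counts for each gene once divided by the library's total, and were used for levels between genes.

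From the counts, genes were filtered by group with filterByExpr, which left 15208 of 55385, libraries were scaled by TMM, and a quasi-likelihood model with genotype and sex was fitted over all 18 libraries in edgeR 4.0.16 (R 4.3.3). P-values were adjusted by Benjamini-Hochberg over all genes tested, with a threshold of 0.05, and every adjusted p in the text whose tool is not named there is edgeR's. Log2 CPM used a prior count of 2. The SE beside an edgeR value is the size of the log2 fold change or slope divided by the square root of the F statistic of its quasi-likelihood test. It therefore restates that test and is not a separate estimate. Alternatives used DESeq2 1.42.0 and limma 3.58.1, with voom or on log2(RPKM + 0.1) and log2(RPKM + 1), other filters and terms, fewer libraries, and each library left out. Exact permutation tests were computed with numpy 2.4.6, with ranks from scipy 1.17.1. The main test of pairs of members over all 18 libraries used 100000 random permutations within genotype and sex. The scripts were tested on simulated data. Columns without a sample numbered 0. Total counts of 38236222 to 59923315 per library set the counting error, and the spread between mice was larger (median biological coefficient of variation 0.351).

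The members, the gene lists and the markers were chosen with earlier results of these data known. All members are named. From each list, up to 4 genes past the threshold by smallest p are named, or otherwise the 2 with the smallest p. The 5 genes most correlated with Arntl and with Nr1d1 were taken from outside the members and lists. Their mean log2 CPM had to be 1 or more, and predicted or clone names were left out.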

Additional observations from a re-analysis of the deposited data

Results flagged for a closer look

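In 30 sets of 6 livers (10 clock genes in 3 genotypes), 4 had a lowest library whose gap to the next, as a share of the whole range on the log2 scale, was larger than chance gives in about 1 of 20 sets. Per1 in WT 1 had a share of 0.6672, with 1.789 CPM beside 9.93 to 23.18 in the other 5 WT livers. Per1 in Dp16-2xIFNRs 3 had a share of 0.7132, with 1.376 CPM beside 9.6 to 20.81. Dbp in WT 1 had a share of 0.7266, with 1.192 CPM beside 51.28 to 208.6, so that this male was low in Per1 and Dbp alike. Cry2 in Dp16 4 had a share of 0.6827, with 5.219 CPM beside 12.98 to 19.79, and this library also had the lowest TMM factor of all 18.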

How the results depend on the processing

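No member was called in a genotype comparison under any alternative except Per2 in Dp16 against WT by DESeq2 (1 member), and every fold change of Per2 and Cry2 against WT kept its sign. The counts of all genes moved more. For Dp16 against WT, 6 genes were called, beside 72 by DESeq2, 10 by limma-voom, 3 with no sex term, 16 with the longer number as a random block, 1 with only the groups compared, 0 in males, in females or in either block of longer numbers (they fall into a lower and a higher block), 1 without Dp16 4 and 5, 11 on either RPKM scale and 10 with Arntl as a term. For Dp16-2xIFNRs against WT, 15 were called, beside 127 by DESeq2, 7 with no sex term, 23 with the first digits of the longer number as a term, 68 with the random block, 43 with only the groups compared, 0 in males or females, 41 in the lower block and 0 in the higher, 64 without Dp16 4 and 5, 38 and 27 on the RPKM scales and 23 with Arntl as a term. For Dp16-2xIFNRs against Dp16 DESeq2 called 7 beside 0. In the other lists 0 genes were called, beside 3 by DESeq2, 2 without Dp16 4 and 5, 2 with Arntl as a term, and 1 by limma-voom, with no filter, with age, the lead number or the first digits as a term, with the random block, with only the groups compared, in the lower block and on log2(RPKM + 0.1). Leaving out 1 library gave 1 to 9 genes for Dp16 against WT, 4 to 48 for Dp16-2xIFNRs against WT, 0 to 0 between the mutants, 0 to 2 in the other lists, and 0 to 0 members in each. The cause of these shifts was not tested.

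Between the sexes 0 members were called, beside 1 by DESeq2, limma-voom, with age or the lead number as a term and in the higher block, 2 on either RPKM scale, and 0 to 1 with a library left out. On the slope on Arntl 5 members and 138 genes were called. Members numbered 2 in males, 2 in females, 0 in the higher block, 3 without the 2 libraries farthest from the median of Arntl, and 3 (without Dp16 2) to 5 with a library left out. The higher block holds only WT 5 and 6, Dp16 4, 5 and 6, and Dp16-2xIFNRs 3 and 6. A count of 0 there cannot tell a lost relation from too few libraries. Genes numbered 531 by DESeq2, 1514 with age and 1290 with the lead number as a term, 80 with the random block, 13 in males, 12 in females, 87 in the lower block, 0 in the higher, 343 without Dp16 4 and 5, 239 without the 2 farthest, and 45 (without Dp16 2) to 1379 (without Dp16 4) with a library left out. With a library left out, the lists held 4 to 6 accessory regulators, 1 to 4 modifiers, 4 to 11 outputs and 0 to 1 cue genes. Over the other 19 alternatives these counts ran from 0 to 6, 0 to 4, 0 to 11 and 0 to 1, and moved by over 1.5 times in 4, 10, 5 and 4 of them, with 0 genes of the first 3 lists in the higher block. Over all 18 libraries 21 of 45 pairs of members passed, beside 32 without centring and 0 in either block. This permutation test shuffles mice only within genotype and sex, where each block holds few, so its 0 cannot decide. Arntl and Dbp had r = −0.92 in the lower and −0.95 in the higher block, and Arntl and Nr1d1 −0.82 and −0.16. Among all genes tested, 4 members had a spread above the 90th percentile, beside 7 on log2(RPKM + 0.1).

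The replicate number, which follows the genotype in a library's name, is not the longer number that some mice share. Mice of different genotypes with the same replicate number did not deviate together: over 18 pairs r ran from −0.45 to 0.34, 8 were over 0.1, and 5 correlated best with their own number. The replicate numbers were therefore not taken as pairs. With the replicate block 5, 21 and 0 genes were called in the 3 genotype comparisons, 2 members between the sexes, and 2 members and 18 genes on the slope on Arntl, where Cry2 (0.039) and Nr1d1 (0.15) turned positive; Cry1 in Dp16 against WT (−0.035), and Per3 (−0.36) and Dbp (0.0080) between the mutants, also changed sign with the block.

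Fold changes that were not called changed sign in 16 of the alternatives for Dp16 against WT, and no called value did. Cry1 there had −0.011 by limma-voom, −0.053 with age, −0.011 with the lead number, −0.18 with the random block, −0.10 without Dp16 4 and 5, −0.43 with Arntl as a term, and −0.078 to 0.25 with a library left out. Per1 had −0.97 in the higher block and −0.30 to 0.47 with a library left out, Nr1d1 0.00071 in females and −0.81 to 0.23 with a library left out, and Dbp 0.12 in the lower block. For Dp16-2xIFNRs against WT, Clock had 0.037 with the random block, 0.084 in males, 0.75 in the higher block and −0.25 to 0.13 with a library left out, Npas2 had −0.16 in males, Per1 0.25 in the lower block and Nr1d1 0.18 in the higher. With a library left out Arntl had −0.31 to 1.66, Npas2 −0.40 to 2.08 and Cry1 −0.057 to 0.67. Between the mutants, Per3 had −0.23 with age, −0.18 with the random block, −0.20 with only the groups compared, −1.78 in males, −1.04 in the lower block, −0.31 without Dp16 4 and 5, −0.032 on log2(RPKM + 0.1), −0.52 with Arntl as a term and −0.41 to 0.97 with a library left out. Dbp there had 1.23 by limma-voom, 0.77 with no sex term, 0.61 with the random block, 1.81 in females, 1.24 in the higher block, 0.47 and 0.41 on the RPKM scales and −0.86 to 1.67 with a library left out. Arntl had 0.11 without Dp16 4 and 5 and −1.56 to 0.083 with a library left out, Clock 0.070 in males, Cry2 0.28 and Nr1d1 0.21 in the higher block, Per1 −0.73 to 0.028 and Cry1 −0.13 to 0.59 with a library left out. With Arntl as a term, the log2 fold change of Per2, female against male, was −0.00987, that of Clock 0.032 and that of Npas2 0.77, and Npas2 had 0.075 with the random block and −1.59 to 0.12 with a library left out.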

Other observations

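Females and males differed in several genes tied to the clock. Of 20 liver outputs, 7 passed the edgeR test of females against males, 5 higher and 2 lower in females, beside 6.56% of all genes. Cyp2a4, a steroid hydroxylase known for its higher level in females, had a log2 fold change of 8.88 (adjusted p = 5.676e-09), Cyp2b10, a target of CAR, 4.63 (adjusted p = 5.434e-07), and Nr1i3, which encodes CAR, 1.02 (adjusted p = 0.0005888). Elovl3, a fatty acid elongase known for its higher level in males, had −7.71 (adjusted p = 1.974e-08). Of 13 accessory regulators 2 passed, Hlf (0.61, adjusted p = 0.03013) and Ppargc1a (0.67, adjusted p = 0.04459), both higher in females. Of 14 genes that respond to temperature or glucocorticoids 2 passed: Fkbp5, which is induced by glucocorticoids, was higher in females (1.57, adjusted p = 0.0002084), and Hsp90aa1 was lower (−0.75, adjusted p = 0.03179). Of 15 modifiers of clock proteins 0 passed, and 0 had an unadjusted p under 0.05, beside 18.8% of all genes.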
